A study of Mus musculus with 16 samples.

Results

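The miRNAs described here are 10 mature miRNAs made from 6 hairpins on the strand opposite Rtl1, in the imprinted Dlk1-Dio3 domain of mouse chromosome 12. They were found by name, as 10 of the 18488 features of a small RNA table, of which 1241 were mature miRNAs. The table held prefrontal cortex libraries from 8 PS19 and 8 wild-type (WT) mice aged about 9.6 months. PS19 mice, on a mixed B6;C3 background, were heterozygous for a human tau transgene with the P301S mutation, driven by the mouse prion protein promoter, and the WT mice, their littermates, lacked it. Males and females were equal in number in the study, but the labels did not say which library came from which sex. Nothing in the labels marked the libraries of a group as more than separate samples, so p-values measure the spread between these libraries.

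In this domain the protein-coding genes Dlk1, Rtl1 and Dio3 are expressed from the paternal chromosome, and the non-coding RNAs from the maternal one. Rtl1 encodes a retrotransposon-derived protein, and the antisense transcript on the other parental chromosome is cut into miRNAs. Those that lie exactly opposite the Rtl1 coding sequence can pair with Rtl1 mRNA along their whole length and direct its cleavage. Each hairpin gives a 5p and a 3p arm, and usually 1 arm is kept in the silencing complex while the other is degraded.

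The mature sequences from RefSeq are shown because the results turn on separate arms of the same hairpins and on how alike they are. They are written 5′ to 3′ in chromosome order, with the seed (bases 2 to 8, which set most miRNA targeting) in capitals.
mmu-miR-337-5p: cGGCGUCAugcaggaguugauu
mmu-miR-337-3p: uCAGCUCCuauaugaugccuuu
mmu-miR-431-5p: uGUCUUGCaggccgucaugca
mmu-miR-433-3p: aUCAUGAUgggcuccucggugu
mmu-miR-127-5p: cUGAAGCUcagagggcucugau
mmu-miR-127-3p: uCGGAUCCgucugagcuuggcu
mmu-miR-434-5p: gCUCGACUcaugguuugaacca
mmu-miR-434-3p: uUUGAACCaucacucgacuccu
mmu-miR-136-5p: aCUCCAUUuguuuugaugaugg
mmu-miR-136-3p: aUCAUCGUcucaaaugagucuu

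All 10 had an entry in RefSeq, and the 10 seeds were distinct. None was shared with another mature mouse miRNA of that table. The longest runs that members had in common were 9 bases, CGUCAUGCA in miR-337-5p and miR-431-5p and UUUGAACCA in both arms of miR-434. The hairpins lay on the plus strand within 9600 bases of chromosome 12 (GRCm38.p6, 109585789 to 109595388).

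The name of the group was checked against the Rtl1 transcript of GENCODE release M21, which lies on the minus strand at 109589193 to 109600330 of the same chromosome. Of the 10 miRNAs, 8 were perfectly complementary to the coding exon. The matching stretches of Rtl1 are shown for the arms read most from the miR-127 and miR-136 hairpins, written 5′ to 3′ with the bases opposite the seed in capitals.
Rtl1 opposite miR-127-3p: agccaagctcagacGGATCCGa
Rtl1 opposite miR-136-5p: ccatcatcaaaacaAATGGAGt
The other 2, miR-337-5p and miR-337-3p, had no such stretch, and their hairpin ended 3307 bases before the GENCODE gene. The longer RefSeq gene model of Rtl1, from 109564900 to 109604418, did include them.

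Values are normalized counts, namely reads divided by 1 size factor per library, and mature miRNAs of 21 or 22 bases are compared without further scaling. The libraries held 13187096 to 23058568 recovered reads. Mature miRNAs made up 14.8% of all signal in WT replicate 7 and 32.0% in WT replicate 3, and the lowest 4 shares were in WT replicates 6 and 7 and PS19 replicates 7 and 8. The 4 neuronal marker miRNAs, led by miR-128-3p, summed to between 294666 and 1026094 in PS19 and between 341505 and 953083 in WT. Of 5 microglial and other immune markers, 3 had a mean under 5 and 2 were tested. miR-155-5p, higher in PS19, was the one tested marker of any cell type to pass an unadjusted p of 0.05 in limma. Over all features 4.0% passed that threshold (241 of 6024). The 8 olfactory bulb markers summed to between 235 (replicate 7) and 14133 (replicate 5) in WT, with 4315 in WT replicate 8. In the PS19 libraries their sum was 475 to 2295. No marker was at 0 in all libraries, and the part of these differences in the results below was not tested.

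mmu-miR-127-3p had the highest level of the members in every library. In PS19 it measured 135669 at the lowest, 218929 at the median and 447956 at the highest, and in WT the same values were 113071, 235147 and 442336. It ranked 5 among all mature miRNAs by mean level and held 80.0% (WT replicate 8) to 91.8% (WT replicate 1) of the members' summed signal. Its partner miR-127-5p ran from 44.6 to 317 in PS19, with a median of 132, and from 56.6 to 333 in WT, with a median of 200. Both arms of miR-127 were read in all 16 libraries, at levels that overlapped between genotypes.

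miR-434 gave 2 arms of like abundance. mmu-miR-434-5p ranged from 4701 to 18164 in PS19 (median 9491) and from 4700 to 15779 in WT (median 13797). miR-434-3p ranged from 2925 to 21261 in PS19 (median 8861) and from 4049 to 23073 in WT (median 12157). The PS19 medians were the lower ones, but 2 and 3 of the 8 PS19 libraries exceeded the WT median for the 5p and the 3p arm.

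mmu-miR-433-3p was next, with 5010 to 12824 in PS19 (median 7362) and 6130 to 11902 in WT (median 8086). It had the narrowest spread of the members, 2.56-fold from the lowest to the highest library. miR-337-5p measured 508 to 2169 in PS19 (median 719) and 551 to 1744 in WT (median 969). PS19 replicate 1 was highest for miR-337-5p and stood apart from the other 7 PS19 libraries.

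The remaining members were at low levels. miR-136-5p measured 129 to 556 in PS19 (median 306) and 103 to 500 in WT (median 363). miR-136-3p measured 19.0 to 69.4 in PS19 (median 45.7) and 14.9 to 74.3 in WT (median 68.0). For miR-136-3p, 1 of 8 PS19 libraries was above the WT median, while WT replicate 7 was the lowest of all 16. miR-431-5p measured 24.9 to 141 in PS19 (median 61.1) and 16.97 to 122 in WT (median 65.6).

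miR-337-3p was close to the limit of detection, with 0 to 9 reads per library. No read was found in 4 PS19 libraries (replicates 4, 5, 6 and 8) and 2 WT libraries (replicates 4 and 6). The limit that a count of 0 allows, 3 reads, corresponded to normalized counts between 2.19 and 3.20 in those libraries. The highest value was 8.02, in WT replicate 5, which was also the library with the most olfactory bulb marker signal. No fold is given for it, because most libraries of both genotypes were at or under that limit. When the filter on low values was dropped, it had an unadjusted p of 0.0760 in limma and did not pass the threshold.

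By mean level the order was miR-127-3p, miR-434-5p, miR-434-3p, miR-433-3p, miR-337-5p, miR-136-5p, miR-127-5p, miR-431-5p, miR-136-3p and miR-337-3p. Neighbours in this order overlapped in range across the 16 libraries, except that miR-127-3p lay above all others, miR-433-3p above miR-337-5p, and miR-337-3p below all others.

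**Figure D1:**
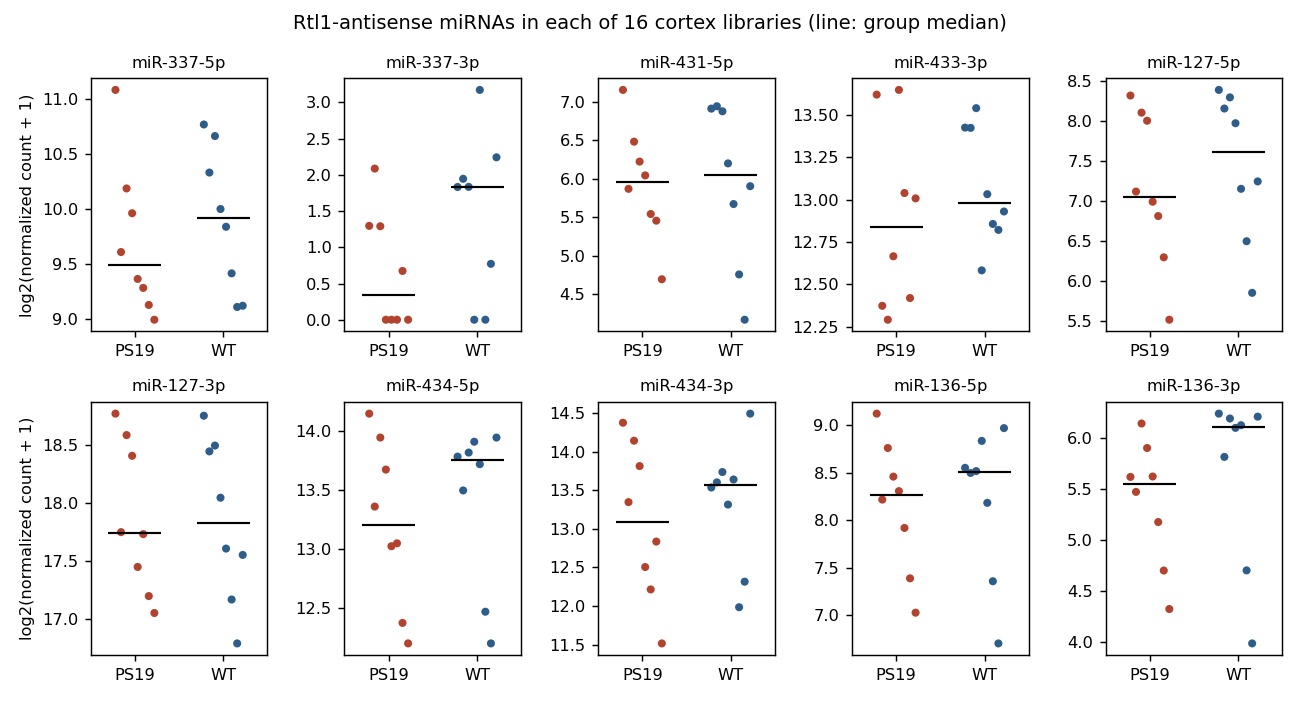
Level of each of the 10 miRNAs, as log2 of the normalized count plus 1 (vertical axis, a separate range in each panel), in 8 PS19 and 8 WT libraries; each point is 1 library and the line is the group median. The genotypes overlap in every panel, and miR-337-3p lies at 0 in 4 PS19 and 2 WT libraries.

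Whether the PS19 genotype changed these miRNAs was tested with limma on log2(normalized count + 1), fitted over the 6024 features with a mean of at least 5. The filter kept 9 of the 10 members and dropped miR-337-3p, whose mean was 1.70. None of the 9 passed an unadjusted p of 0.05, the threshold of the study, where 4.0% of all features did (241 of 6024, 112 higher and 129 lower in PS19). No feature passed after Benjamini-Hochberg adjustment, and the adjusted p of all 9 members was 0.9998. Their unadjusted p-values ran from 0.386 to 0.992. In bulk tissue, fewer cells of a type and less RNA per cell cannot be told apart.

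Of the 9 members, 7 had a negative and 2 a positive log2 difference (PS19 minus WT), where 53.2% of all features and 66.4% of the mature miRNAs tested were negative. They had a median difference of -0.20, against -0.02 over all features and -0.13 over the 521 mature miRNAs tested. The lowest unadjusted p was that of miR-136-3p, with a difference of -0.30 (95% confidence interval from limma, -1.01 to 0.41). miR-127-5p had the same difference, -0.30, with an interval of -1.16 to 0.56. For the abundant miR-127-3p the difference was 0.01 (interval -0.61 to 0.63), which covers PS19 levels from 0.657 to 1.54 times the WT level.

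miR-434-5p and miR-434-3p differed by -0.20 (interval -0.84 to 0.45) and -0.23 (interval -1.05 to 0.58). miR-433-3p, the most evenly expressed member, differed by -0.19 with the narrowest interval, -0.67 to 0.28. The differences of miR-337-5p, miR-136-5p and miR-431-5p were -0.20, -0.05 and 0.00, each with an interval that included 0. Every interval included 0. Their lower limits ran from 0.448 to 0.657 times the WT level and their upper limits from 1.21 to 1.78 times.

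The table also had a precursor feature for each hairpin, counted separately from the mature arms in a way that is not given in the sources used here. All 6 precursors had a negative difference, where 53.2% of all features did. The median of the 6 was -0.20, against -0.02 over all features. None of the 6 passed the threshold in limma (unadjusted p of 0.284 at the lowest and 0.930 at the highest), where 4.0% of all features did. The lowest difference was that of mir-431, at -0.41 (interval -1.20 to 0.37). mir-127 differed by -0.10 (interval -0.79 to 0.59).

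**Figure D2:**
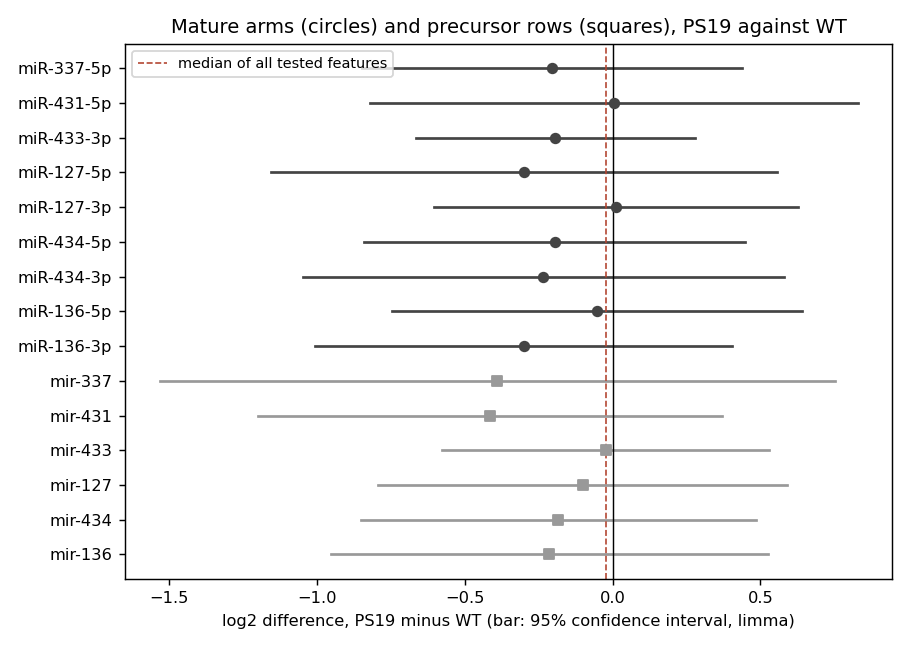
Log2 difference between PS19 and WT (horizontal axis, PS19 minus WT) for the 9 tested mature miRNAs (circles) and the 6 precursor features (squares), with 95% confidence intervals from limma; the dashed line is the median of all tested features, -0.02. All intervals cross 0.

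Library codes in the labels began with G in all 8 PS19 libraries but in only 2 of the WT libraries, 4 of which began with F and 2 with A. The sources used here do not explain these letters. With the letter as a term, or with the G libraries alone, the median log2 difference of the 9 members was -0.48. The median over all features was -0.033 and -0.035 in these 2 settings. All 9 members were then negative, and 0 of 9 passed the threshold, where 2.06% and 2.11% of all features did. The letter and the genotype can be told apart only through those 2 WT libraries.

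Together, the 10 members held 5.67% to 7.30% of the mature miRNA signal in PS19 (6.55% ± 0.518, SD, n = 8) and 5.33% to 8.48% in WT (6.43% ± 1.01, SD, n = 8). WT replicate 2 had the highest share and WT replicate 8 the lowest, so that the PS19 libraries lay inside the range of the WT ones. The means differed by 0.121 percentage points, a value that was -0.035 without WT replicate 8 and 0.415 without WT replicate 2.

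The arms of a hairpin are cut from the same molecule, so the ratio of their reads within a library does not depend on how libraries were scaled, apart from the pseudocount of 1 added to each arm for the tests below. miR-337 was read almost wholly as its 5p arm (median 99.9% of both arms) and miR-136 mostly so (86.9%). miR-127 and miR-433 were read from the 3p arm, with median 5p shares of 0.0704% and 0.686%. miR-434 and miR-431 gave near-equal arms at the median, with 50.8% and 49.9% of reads from the 5p side. The 5p share of miR-434 ran from 40.6% in WT replicate 8 to 64.1% in PS19 replicate 6, and that of miR-431 from 31.2% in WT replicate 7 to 64.7% in PS19 replicate 5.

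The hairpin of miR-434, whose arms were read about equally at the median, is shown with both arms in capitals.
Mir434 hairpin: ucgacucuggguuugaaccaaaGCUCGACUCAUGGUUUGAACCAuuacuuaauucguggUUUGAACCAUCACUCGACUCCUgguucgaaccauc
It spans 94 bases at chromosome 12, 109594506 to 109594599, in GRCm38.p6. The 9 bases that its arms share end the 5p arm and open the 3p arm.

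Reads assigned to the precursor also differed widely between hairpins. For each read on the arms, mir-431 held 5.20 reads and mir-136 held 3.41 (medians of 16 libraries, not divided by length). The precursor features of mir-434 and mir-127 held 7.23% and 1.05% of the reads on their arms, and those of mir-337 and mir-433 held 0.462% and 0.386%.

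The log2 ratio of the 3p to the 5p arm was compared between genotypes for the 4 hairpins with both arms among the members, with a two-sided exact permutation test for each hairpin. For miR-127 it averaged 10.73 ± 0.385 in PS19 and 10.42 ± 0.275 in WT (SD, n = 8), a difference of 0.31 (exact p = 0.0777, adjusted over the 4 ratios 0.201). The 5 lowest ratios were those of WT libraries, but the groups overlapped, since WT replicate 7 had the second highest value of the 16. Without PS19 replicate 8, the highest library, the difference was 0.19 (exact p = 0.156). It passed the unadjusted threshold without WT replicate 7 (0.39, exact p = 0.0204, adjusted 0.0814). It also did so without the 4 libraries lowest in mature miRNA, a choice made after seeing the data (0.28, exact p = 0.00649, adjusted 0.0260). Those 4 libraries were all among the 5 highest in this ratio, and the part of their miRNA content in it was not tested.

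For miR-136 the log2 ratio averaged -2.78 ± 0.299 in PS19 and -2.53 ± 0.262 in WT (exact p = 0.101, adjusted 0.201). The difference was -0.25, and -0.15 without PS19 replicate 1. The lowest value was that of PS19 replicate 1, and the highest 3 were in WT replicates 1, 3 and 5. miR-434 differed by -0.04 (exact p = 0.858). miR-337 differed by -0.60 (exact p = 0.240, adjusted 0.320), a value that rests on the pseudocount of 1 where its 3p arm was at 0 and was -0.35 without WT replicate 5.

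**Figure D3:**
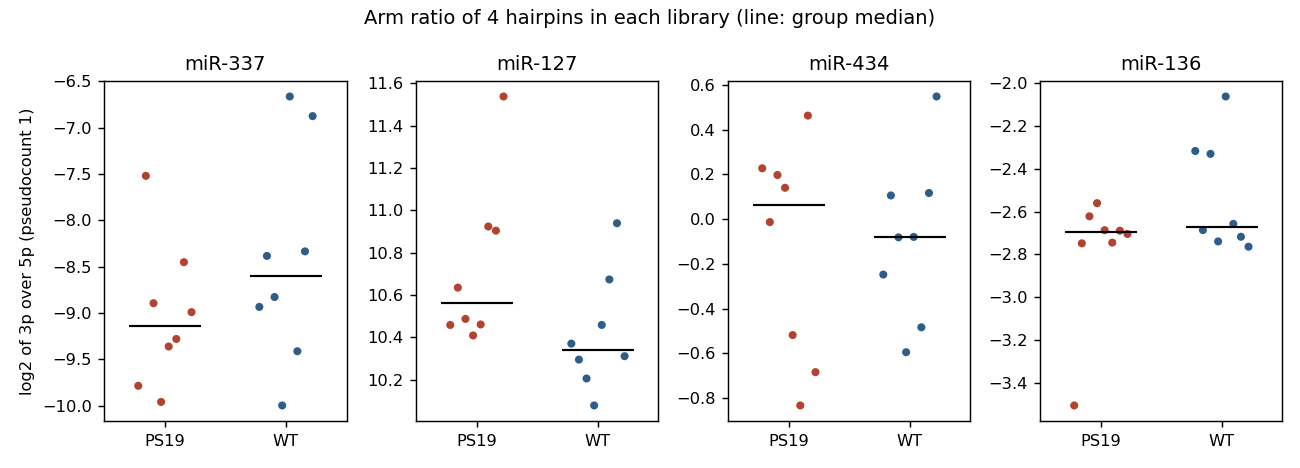
Log2 ratio of the 3p to the 5p arm (vertical axis, separate ranges) for 4 hairpins in 8 PS19 and 8 WT libraries; each point is 1 library and the line is the group median. For miR-127 the values lie between 10.08 and 11.54, and the 5 lowest are WT.

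Over the 16 libraries most members rose and fell together. Among the 8 members other than miR-433-3p and miR-337-3p, Pearson's r on log2 values lay between 0.63 and 0.96 in the 28 pairs, with a median of 0.85. The median over all pairs of the 306 mature miRNAs with a mean of at least 50 was 0.62. Values of a library share its size factor and libraries differed in miRNA content, and the r of those 8 members with the log2 of the mature miRNA share ran from 0.67 for miR-337-5p to 0.94 for miR-434-5p.

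miR-433-3p followed the others less closely over all 16 libraries. Its r with the same 8 members was 0.05 to 0.43 (0.27 to 0.75 over the 8 WT and -0.17 to 0.23 over the 8 PS19 libraries, a difference that was not tested), and with the mature miRNA share it was 0.15. It was highest in PS19 replicate 5, a library in which miR-127-3p (178787) was below its PS19 median. Its own precursor followed it (r = 0.83), while the other arm of its hairpin, miR-433-5p, did so little (r = 0.27).

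**Figure D4:**
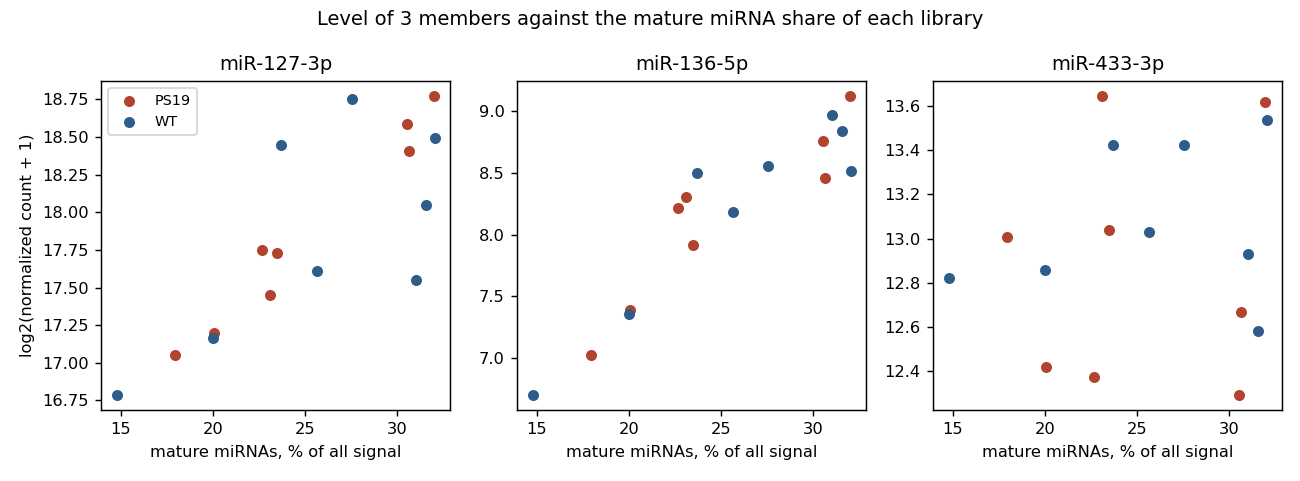
Log2 of the normalized count plus 1 (vertical axis) of miR-127-3p, miR-136-5p and miR-433-3p against the share of all signal in mature miRNAs (horizontal axis, percent), 1 point per library, PS19 and WT coloured apart. The first and second rise with the share (r = 0.81 and 0.94), and miR-433-3p does so little (r = 0.15).

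When each library was scaled to its mature miRNA total, the median r among the 8 members fell from 0.85 to 0.30, against 0.06 over all mature miRNAs. The arms of miR-434 and miR-136, the most downstream hairpins on the plus strand, then still rose together, with r of 0.32 to 0.79. miR-127-3p had r of -0.41 to -0.21 with those 4 arms and 0.58 with both miR-337-5p and miR-431-5p. miR-127-5p had r of 0.28 to 0.35 with the same 4 arms.

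**Figure D5:**
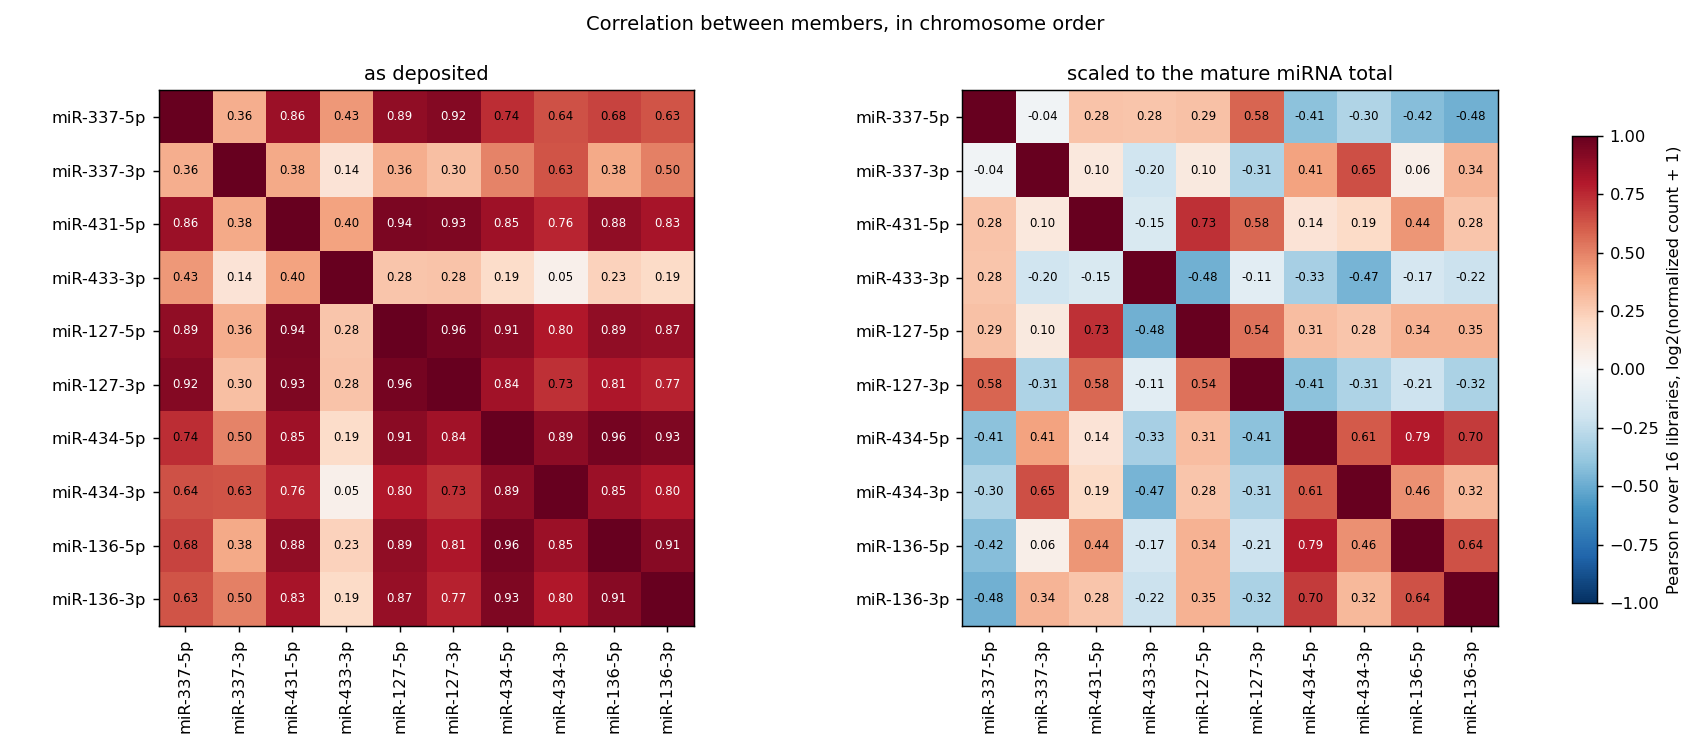
Pearson's r over 16 libraries between the 10 miRNAs in chromosome order, on log2 of the normalized count plus 1, as deposited (left) and after scaling each library to its mature miRNA total (right). On the left, miR-433-3p and miR-337-3p have the palest rows; on the right, the 4 arms of miR-434 and miR-136 form a positive block.

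The miRNAs most like the mean of the 8 members with a mean of at least 50 (all but miR-136-3p and miR-337-3p) were sought among the 298 other mature miRNAs above the same minimum. The 5 with the highest r over the 16 libraries were miR-300-3p (0.986), miR-541-5p (0.980), miR-98-5p (0.978), miR-325-5p (0.974) and miR-493-5p (0.964). miR-300-3p, miR-541-5p and miR-493-5p come from the same imprinted domain, and miR-98-5p is a let-7 family member. The domain gave 9 of the 20 most alike miRNAs and 44 of the 298 compared. The median r of all 306 was 0.81, so a high r was common in these libraries. After scaling to the mature total, the highest was miR-139-5p, at 0.869, and the domain gave 12 of the 20 most alike.

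Other miRNAs of the domain were counted from fixed lists. Of the 24 other features on the Rtl1 side, which include the precursors mir-431 and mir-433 described above, 14 were tested. Over all features 4.0% passed the unadjusted threshold, and none of these 14 did. Their differences were negative in 13 of 14, against 53.2% of all features and 66.4% of mature miRNAs, with a median of -0.25, from -0.58 for miR-433-5p (interval -1.41 to 0.25) to 0.03 for miR-673-3p. All 6 features of miR-341 and miR-370 were tested and none passed, against the same 4.0% of all features. They had a median of -0.18, from -0.48 for miR-341-5p to 0.09 for miR-370-3p.

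In the large cluster hosted by Mirg, further downstream, 49 of 70 mature miRNAs were tested and 43 of them (87.8%) had a negative difference, against 66.4% of all mature miRNAs tested. Their median was -0.31, against -0.13. Of these 49, 4 passed the unadjusted threshold (8.16%), all lower in PS19, where 2.14% of all features were. They were miR-377-5p (-1.14), miR-1193-3p (-0.89), miR-382-3p (-0.80) and miR-376c-3p (-0.96), with unadjusted p-values from 0.00395 to 0.0487 and an adjusted p of 0.9998 in limma. Their means were between 5.16 and 12.9 normalized counts, below the means of 9 of the 10 members. The highest difference in that cluster was 0.46, for miR-668-5p, which did not pass.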

How the data were processed

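Small RNA was isolated from 10 mg of prefrontal cortex and sequenced from NEBNext small RNA libraries. Single-end reads were mapped by the authors using STAR 2.5.3a within COMPSRA, with build mm10 and DESeq2 1.42.1 named in the submitters' processing notes. The deposited values are a normalized signal, read counts that the authors divided by 1 size factor per library. The deposited log2 fold changes, their standard errors and Wald score and the p-values hold the authors' own comparison and were not used. Dividing by the smallest value above 0 gave whole reads for 100% of values (tolerance 0.02); for WT replicates 4 and 6 the smallest value was close to 1, which is weaker evidence. 0 columns were left out.

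Genotype and replicate number came from the labels. Values were analysed as log2(value + 1), which understates changes of low features, with limma 3.58.1 in R 4.3.3 (lmFit, eBayes with trend), genotype as the only term, a mean of at least 5 over 16 libraries, and Benjamini-Hochberg adjustment over all 6024 features. Arm ratios used scipy 1.17.1. On simulated data with 200 of 6024 features changed, limma recovered 90, with 18% of changes of 1 and 72% of changes of 2 on the log2 scale, and called 4 unchanged features. Within groups, 56 pairs of libraries differed by a chi-square per degree of freedom of 43.5 to 570, so no pair differed by counting error alone. This cannot tell a second preparation of the same sample from a separate sample. The members, lists and tests were chosen with earlier results of these data known. Named are all members, their precursors, and in each list the highest and lowest difference; the 4 called miRNAs of the Mirg list were named after their values were seen. Alternatives included DESeq2 1.42.0 and edgeR 4.0.16 on the recovered reads, other scalings, filters and pseudocounts, array weights, a replicate block, the code letter and leaving out libraries. Limits for counts of 0 cover counting error only, while limma's intervals reflect the spread between libraries. Sequences and positions are from RefSeq (GRCm38.p6) and GENCODE M21.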

Additional observations from a re-analysis of the deposited data

Results flagged for a closer look

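Among 30 sets of 8 libraries, 5 had a library far from the others by Dixon's criterion. The sets were 10 miRNAs, their summed share and 4 arm ratios, in each genotype. For normally distributed values chance gives about 1 in 20, or 1.5. The miRNAs were examined as normalized counts and not as log2 values, so that rate need not hold for them. miR-337-5p was 2169 in PS19 replicate 1, against 1165 in the next library. miR-337-3p was 3.25 in PS19 replicate 2, against 1.46, and 8.02 in WT replicate 5, against 3.73, all of these being 9 reads or fewer. The log2 ratio of the arms of miR-127 was 11.54 in PS19 replicate 8, against 10.92. The log2 ratio of the arms of miR-136 was -3.51 in PS19 replicate 1, against -2.75.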

How the results depend on the processing

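In every alternative run, 0 of the members tested passed an unadjusted p of 0.05, and the lowest p was 0.0582, for miR-136-3p without the 4 libraries lowest in mature miRNA. The sign of differences near 0 did not hold. miR-431-5p was -0.0081 with a pseudocount of 5, -0.10 with array weights, -0.64 with the code letter as a term or the G libraries alone, -0.20 without those 4 libraries, and -0.12 with both DESeq2 and edgeR. miR-127-3p was -0.030 with array weights, -0.034 without the 4 libraries, and -0.38 with the letter or the G libraries. miR-136-5p was 0.0019 scaled to the mature total. In the G libraries the log2 arm ratios of miR-434 and miR-337 differed by 0.12 and 0.16, and that of miR-127 by 0.54 (exact p = 0.0889).

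Leaving out 1 library at a time gave -0.25 to 0.18 for miR-431-5p, -0.14 to 0.14 for miR-127-3p, -0.27 to 0.11 for miR-136-5p, -0.53 to -0.067 for miR-127-5p, -0.54 to -0.15 for miR-136-3p, -0.43 to -0.0087 for miR-434-3p, -0.37 to -0.050 for miR-434-5p, -0.40 to -0.082 for miR-337-5p, -0.30 to -0.11 for miR-433-3p, -0.12 to 0.063 for the miR-434 ratio, -0.83 to -0.35 for the miR-337 ratio, -0.28 to -0.15 for the miR-136 ratio, 0.19 to 0.39 for the miR-127 ratio, -0.035 to 0.41 percentage points for the summed share, and 0 to 1 ratios passing. That 1 was miR-127 without WT replicate 7. It was also the 1 ratio that passed without the 4 libraries and with the replicate block (exact sign-flip p = 0.0234, adjusted 0.0938). The cause was not tested.

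Same-numbered libraries had correlated deviations (r from 0.045 to 0.456), over 0.1 in 6 of 8 pairs. Of the PS19 libraries, 2 of 8 matched their own number best, so the numbers were not taken as pairs. In both genotypes miR-127-3p, miR-127-5p and miR-337-5p were higher in every library numbered 1 to 4 than in any numbered 5 to 8. The other members did not split this way in both genotypes. The labels do not say what the numbers stand for, the main fit had no term for them, and the source of this order was not tested. With the replicate block 419 features passed, against 241. Others were 680 with no filter (3.98% of 17088), 5.42% of 2510 features with a mean of at least 20, 122 scaled to the mature total, 418 with array weights, 124 with the letter and 126 in the G libraries. DESeq2 called 15 features after adjustment and edgeR 0, no member among them. miR-337-3p had at most 9 reads in any library.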

Other observations

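miR-433-3p followed the other members less closely, so the miRNAs most like it were looked up after its values were seen. Over the 16 libraries these were miR-323-5p (r = 0.939), miR-760-3p (0.930), miR-139-3p (0.914), miR-669c-5p (0.909) and miR-770-3p (0.891), of which miR-323-5p and miR-770-3p come from the same imprinted domain. After scaling to the mature miRNA total, miR-323-5p was again first (0.942), followed by miR-486a-5p and miR-486b-5p (both 0.926). miR-486a-5p is 1 of 4 red blood cell markers, of which miR-144-3p and miR-144-5p had means under 5. The sum of the 4 markers lay between 731 and 1518 in PS19 and between 653 and 1411 in WT. It was highest in PS19 replicate 5, the library with the most miR-433-3p. miR-486a-5p had the highest mean of the 4, at 976, so the sum mostly repeats its likeness to miR-433-3p and is no separate observation. Per the methods of the study, the mice were perfused with saline before the brain was taken. The part of red blood cells in the level of miR-433-3p was not tested.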
